A study of Mus musculus with 6 samples.

Results

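The 10 genes described here encode the machinery that loads peptides onto MHC class II molecules and shows them to CD4+ T cells. They were taken by symbol from a fixed list: H2-Aa, H2-Ab1, H2-Eb1, H2-DMa, H2-DMb1, H2-Oa, H2-Ob, Cd74, Ciita and Ctss. All 10 were found among the 44678 gene identifiers of the deposited tables, each with 1 identifier, and all 10 were among the 13024 genes that passed the filter on low counts. The rule is by function and symbol, with no threshold on a measured value. The list was, however, chosen with earlier results of these data known. In both genotypes the members were expressed well above the counting floor. The WT and KO libraries overlapped for each of the 10, whereas they did not overlap for 11.5% of all genes tested.

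MHC class II molecules are pairs of an alpha and a beta chain that carry peptides from the endosome to the cell surface. The invariant chain, encoded by Cd74, guides newly made pairs to the endosome and blocks their groove, cathepsin S (Ctss) trims it to a short remnant, and the DM pair (H2-DMa, H2-DMb1) exchanges that remnant for peptide, while the DO pair (H2-Oa, H2-Ob) holds DM back. Ciita encodes the co-activator that switches on most genes of this pathway. In the mouse spleen, class II is carried mainly by B cells, DCs and macrophages, whereas resting mouse T cells make little or none.

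The study profiled RNA from the spleen of wild type (WT) mice and of mice lacking the miR-144/451 locus (KO), with 3 libraries of each genotype. According to the methods, the KO strain is on a C57BL/6J background and lacks a genomic segment that holds both microRNA precursors, and WT mice were C57BL/6J. The sample records call the cells CD8a+ leukocytes without treatment, whereas the paper presents the sequencing as addressing gene expression in DCs. The methods describe magnetic selection of CD11c+ DCs, CD8+ T cells and CD4+ T cells, without saying which, if any, gave the sequenced cells or how pure they were. The methods give 1 range of young adult ages for all animals. The sex of the sequenced mice is not stated, nor whether each library came from 1 mouse, so that p-values here measure the spread between these libraries, which may be partly technical.

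The labelled cell type could be checked against marker genes. Cd8a, a chain of the CD8 co-receptor, stood at 693 to 1040 CPM (counts scaled to a common library size after TMM normalization) in WT and 475 to 1028 in KO libraries. Cd8b1 and Cd3e, of the T cell markers, stood at 545 to 754 and 300 to 402 CPM in WT libraries. In KO libraries they stood at 304 to 687 and 217 to 392 CPM. Xcr1 and Clec9a, of the conventional DC markers, summed to 32.5 to 37.8 CPM in WT and 33.6 to 72.5 CPM in KO libraries. B cell genes were also abundant, and Cd79a, a chain of the B cell receptor complex, reached 315 to 552 CPM in WT and 252 to 618 in KO libraries. None of the 15 B cell, 12 conventional DC or 13 monocyte and macrophage markers listed was at 0 in any library. Transcripts of several cell types were thus read in every library, and in such bulk RNA fewer cells of a type and less RNA per cell cannot be told apart. Libraries totalled 8143971 to 8876570 counts, at which 3 counts correspond to 0.338 to 0.368 CPM, a floor that covers counting error only.

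Class II genes share an upstream module in which an X box, bound by the RFX complex, lies a short way before a Y box, bound by NF-Y. Promoter windows from RefSeq (GRCm38.p6, 250 bases before to 50 after the start site) were matched by symbol for 7 of the 10 members and for the related genes H2-Eb2 and H2-DMb2. They were searched for the Y box TGATTGG on either strand, and for the pair formed by GNAAC, the core of the X box, and TGATTGG 20 to 45 bases further along the strand of the gene. These letters were chosen after the windows had been read. The pair occurred in 5 of the 7 members, namely H2-Aa, H2-Eb1, H2-DMb1, H2-Oa and H2-Ob, and in H2-Eb2. It was present in 0.338% of the 32851 promoter windows of all genes, and the Y box alone on either strand in 7.82%. The matching stretches are shown 5′ to 3′ on the strand of the gene as the sequence feature that most of the matched members share, with the X core and the Y box in capitals.
H2-Aa (chr17:34287855-34287916, minus strand): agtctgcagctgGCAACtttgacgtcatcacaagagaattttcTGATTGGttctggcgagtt
H2-Eb1 (chr17:34305764-34305824, plus strand): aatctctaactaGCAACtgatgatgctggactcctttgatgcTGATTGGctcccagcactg
H2-DMb1 (chr17:34153085-34153146, plus strand): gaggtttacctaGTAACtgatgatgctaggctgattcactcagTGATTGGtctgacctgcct
H2-Oa (chr17:34092291-34092352, plus strand): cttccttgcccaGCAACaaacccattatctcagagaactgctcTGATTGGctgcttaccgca
H2-Ob (chr17:34238806-34238864, plus strand): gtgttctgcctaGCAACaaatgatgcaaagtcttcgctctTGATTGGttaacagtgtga
H2-Eb2 (chr17:34325531-34325591, plus strand): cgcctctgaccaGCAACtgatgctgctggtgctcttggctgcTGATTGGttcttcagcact
H2-DMb2 (chr17:34145114-34145175, plus strand): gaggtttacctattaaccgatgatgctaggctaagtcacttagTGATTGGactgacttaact

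In the 5 members the bases between the X core and the Y box numbered 23 to 26, and the Y box ended 38 to 56 bases before the start site. H2-DMb2 held the Y box but not the letters GNAAC at this distance. Neither of the 2 windows of H2-DMa nor the window of Ctss held the Y box on either strand. A match describes these letters only and is not evidence of binding.

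The deleted microRNAs are shown with their seed, bases 2 to 8, in capitals, since the seed is the part that pairs with target messages. The 3 seeds differ from each other. The microRNAs lie on the plus strand of chromosome 11 (GRCm38.p6, sequences from RefSeq).
miR-144-5p (chr11:78073010-78073032): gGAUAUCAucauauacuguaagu
miR-144-3p (chr11:78073047-78073066): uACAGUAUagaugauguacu
miR-451a (chr11:78073186-78073207): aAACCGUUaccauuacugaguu

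The 3′ untranslated regions annotated for the 10 members in GENCODE M21 held no 7-base match to the seed of miR-144-3p or miR-451a. Such matches were present in 12.6% and 1.83% of the 21037 genes with an annotated region. The seed of miR-144-5p had 1 match among the members, in H2-Ob, against 6.56% of all genes. It reads, with the seed match in capitals, tttaaaaTGATATCtgctcta.

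Of the classical chains, H2-Aa (ENSMUSG00000036594, chromosome 17, 34282744 to 34287823, minus strand) encodes the alpha chain of I-A. H2-Aa stood at 1170, 673 and 797 CPM in WT1 to WT3 and at 1183, 1147 and 815 CPM in KO1 to KO3. WT1, KO1 and KO2 were the high libraries and WT2, WT3 and KO3 the low ones, so that the genotypes overlapped. WT libraries had a mean of 880 ± 258 CPM (SD, n = 3), and KO libraries one of 1048 ± 203 CPM (SD, n = 3). The fold change was 1.19, with a 95% interval from 0.836 to 1.70 (edgeR's quasi-likelihood test, adjusted p = 0.870).

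H2-Ab1 (ENSMUSG00000073421, 34257689 to 34269419, plus strand) encodes the beta chain that pairs with it. H2-Ab1 stood at 1124, 770 and 917 CPM in WT1 to WT3 and at 1256, 1260 and 876 CPM in KO1 to KO3. KO1 and KO2 lay above all WT libraries and KO3 lay below WT1 and WT3. For H2-Ab1 the estimated ratio of KO to WT was 1.21 (95% interval 0.901 to 1.62, edgeR adjusted p = 0.829). H2-Eb1 (ENSMUSG00000060586, 34305867 to 34316674, plus strand) encodes the beta chain of I-E. It had 1092, 725 and 897 CPM in WT and 1196, 1158 and 837 CPM in KO libraries, again with KO3 below WT1 and WT3. Its ratio of KO to WT was 1.18, between 0.877 and 1.58 at 95% confidence (edgeR adjusted p = 0.855).

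The partner of H2-Eb1, the I-E alpha gene, is annotated in this strain as the polymorphic pseudogene H2-Ea-ps (34341959 to 34344645, minus strand), since C57BL/6 mice do not make the I-E alpha chain. It had 0 counts in each of the 6 libraries, which allows up to 0.338 to 0.368 CPM per library. H2-Eb1 was thus read at 725 CPM or more in all libraries while its partner was not detectable at this depth. The related gene H2-Eb2 had a mean of 9.39 CPM per kilobase of exon, against 506 for H2-Eb1. It stood at 21.9 to 41.6 CPM in WT and 20.8 to 40.1 CPM in KO libraries. Only 0.710% of the 31-base words of H2-Eb1 transcripts also occur in H2-Eb2. With the counts of H2-Eb1 and H2-Eb2 summed, the log2 fold change was 0.23 (standard error 0.19).

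The chains kept a nearly fixed proportion to each other. Per kilobase of exon, the level of H2-Eb1 was between 1.21 and 1.29 times that of H2-Ab1 in all 6 libraries. The ratio of H2-Ab1 to H2-Aa, per kilobase of exon, was 1.57 to 1.63 in the KO libraries and 1.42, 1.69 and 1.70 in WT1 to WT3. WT1 was therefore the library with the most H2-Aa relative to both beta chains.

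Cd74 (ENSMUSG00000024610, chromosome 18, 60803848 to 60812652, plus strand) was the highest member per kilobase of exon. Cd74 stood at 3763, 2500 and 2806 CPM in WT1 to WT3 and at 3953, 4044 and 2589 CPM in KO1 to KO3. KO1 and KO2 were above WT1, whereas KO3 was below WT3. WT libraries averaged 3023 ± 659 CPM (SD, n = 3), and KO libraries 3529 ± 815 CPM (SD, n = 3). For Cd74 the estimated ratio of KO to WT was 1.17 (95% interval 0.836 to 1.63, edgeR adjusted p = 0.870). Per kilobase of exon, the level of Cd74 was 7.19 to 8.40 times that of H2-Aa, with no separation of the genotypes.

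Ctss (ENSMUSG00000038642, chromosome 3, 95526786 to 95556403, plus strand), the protease that trims the invariant chain in B cells and DCs, had 365, 236 and 250 CPM in WT1 to WT3. In KO1 to KO3 it had 341, 377 and 239 CPM. WT1 lay between the high KO libraries, and KO3 lay between WT2 and WT3. Its ratio of KO to WT was 1.13, between 0.804 and 1.58 at 95% confidence (edgeR adjusted p = 0.895).

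**Figure D1:**
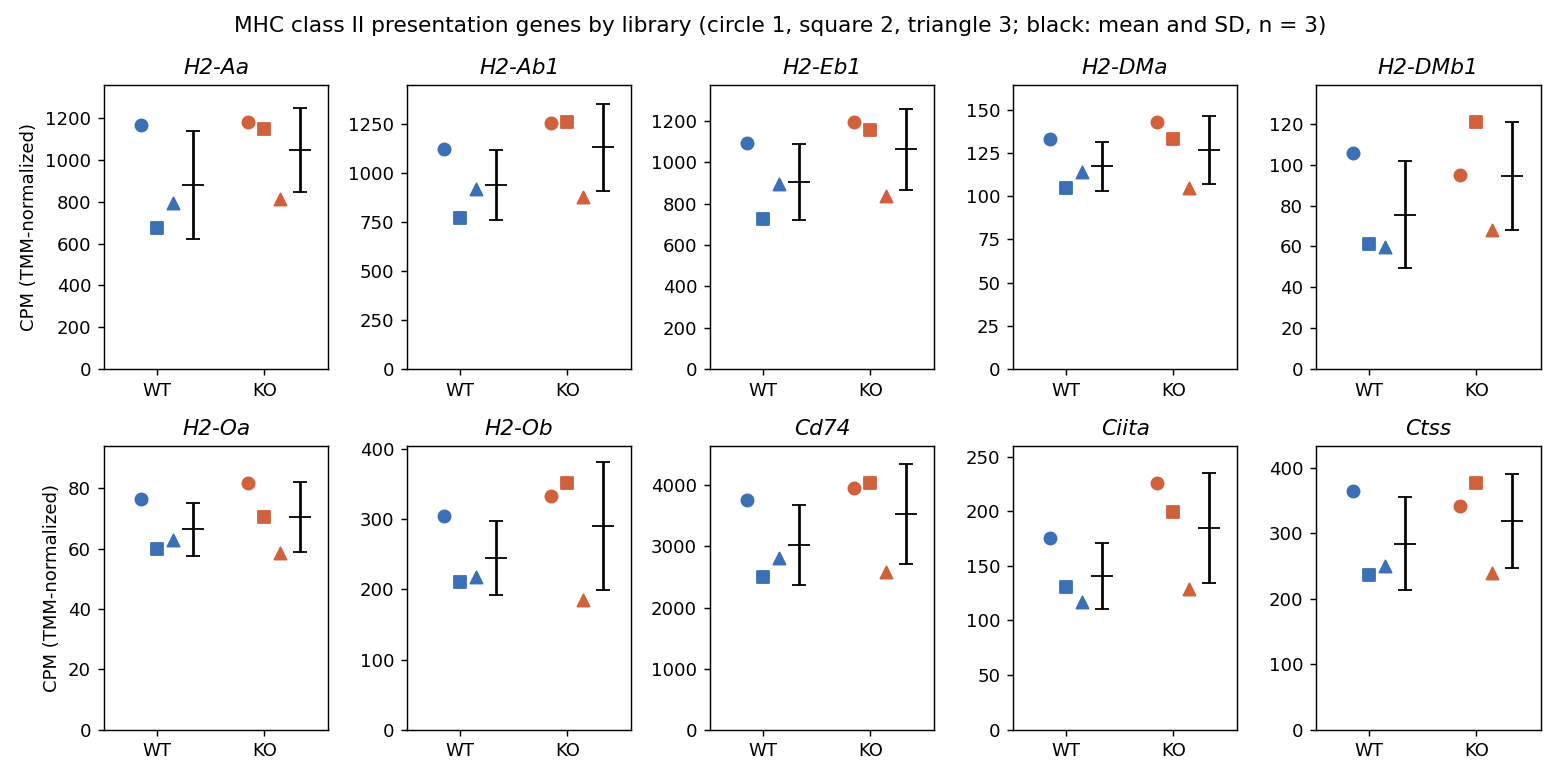
CPM (TMM-normalized, linear axis from 0) of each of the 10 members in the 3 WT (blue) and 3 KO (orange) libraries, with circle, square and triangle for libraries 1, 2 and 3 and the mean and SD in black. WT1, KO1 and KO2 sit high and WT2, WT3 and KO3 sit low in all 10 panels, and no panel shows KO libraries clear of WT libraries.

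The DM and DO pairs act after the invariant chain has been trimmed. H2-DMa (ENSMUSG00000037649, 34119541 to 34139101, plus strand), the DM alpha chain, had 133, 105 and 114 CPM in WT1 to WT3 and 143, 133 and 105 CPM in KO1 to KO3. Its WT and KO libraries spanned almost the same range. For H2-DMa the estimated ratio of KO to WT was 1.08 (95% interval 0.869 to 1.34, edgeR adjusted p = 0.895). Its exons overlap those of Brd2 on the opposite strand over 360 bases, where reads of the 2 genes cannot be told apart unless strand was used in counting, which is not stated.

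H2-DMb1 (ENSMUSG00000079547, 34153072 to 34160230, plus strand), a DM beta chain, had 106, 61.2 and 59.6 CPM in WT1 to WT3 and 94.8, 121 and 68.1 CPM in KO1 to KO3. WT1 exceeded KO1, and KO3 exceeded WT2 and WT3. Its ratio of KO to WT was 1.25, between 0.820 and 1.91 at 95% confidence (edgeR adjusted p = 0.864). The split of reads between H2-DMb1 and its near-copy H2-DMb2 is uncertain, since 31.4% of the 31-base words of H2-DMb1 transcripts also occur in H2-DMb2. With the counts of H2-DMb1 and H2-DMb2 summed, the log2 fold change was 0.26 (standard error 0.30), against 0.32 (standard error 0.27) for H2-DMb1 alone.

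H2-DMb2 had a mean of 108 CPM per kilobase of exon, against 50.6 for H2-DMb1. It stood at 234, 139 and 146 CPM in WT1 to WT3 and 247, 255 and 107 CPM in KO1 to KO3. The ratio of H2-DMb2 to H2-DMb1, in CPM without scaling to length and thus meant only for setting libraries side by side, was 2.22, 2.27 and 2.44 in WT1 to WT3, 2.60 in KO1 and 2.12 in KO2. In KO3 the ratio was 1.58, the lowest of the 6 libraries.

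H2-Oa (ENSMUSG00000024334, 34092340 to 34095234, plus strand), the DO alpha chain, varied least with genotype. H2-Oa had 76.4, 60.0 and 62.8 CPM in WT1 to WT3 and 81.8, 70.6 and 58.6 CPM in KO1 to KO3. The highest and the lowest value were both from KO libraries. For H2-Oa the estimated ratio of KO to WT was 1.06 (95% interval 0.843 to 1.33, edgeR adjusted p = 0.926), and 321 of its exon bases are shared with BC051537 on the opposite strand.

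H2-Ob (ENSMUSG00000041538, 34238903 to 34254414, plus strand), the DO beta chain, which is known mainly from B cells, had 305, 211 and 217 CPM in WT1 to WT3. In KO1 to KO3 it had 333, 352 and 185 CPM. KO3 was the lowest of all libraries here, and KO2 the highest. Its ratio of KO to WT was 1.19, between 0.800 and 1.76 at 95% confidence (edgeR adjusted p = 0.874).

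Ciita (ENSMUSG00000022504, chromosome 16, 10480059 to 10528418, plus strand), the co-activator of the pathway, had the largest fold change of the 10 members. It stood at 175, 131 and 117 CPM in WT1 to WT3 and at 226, 199 and 129 CPM in KO1 to KO3. KO1 and KO2 lay above all WT libraries, whereas KO3 lay just below WT2. WT libraries averaged 141 ± 30.4 CPM (SD, n = 3), and KO libraries 185 ± 50.1 CPM (SD, n = 3). For Ciita the estimated ratio of KO to WT was 1.31 (95% interval 0.923 to 1.86, edgeR adjusted p = 0.817). Its exons overlap those of Dexi on the opposite strand over 329 bases.

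Across the 10 members, none was called at an adjusted p-value under 0.05 by edgeR's quasi-likelihood test, where 0.0307% of the 13024 genes tested were called. DESeq2 and limma voom also called none of the 10, where they called 56 and 3 of the 13024 genes. By edgeR's test none of the 10 reached an unadjusted p-value under 0.05 either, against 6.25% of all genes. That count of unadjusted p-values depended on single libraries, and was 4 of 10 without WT1 (1229 of 13293 genes in all) and 3 of 10 without KO3 (1869 of 13302 genes in all). All 10 log2 fold changes were above 0, from 0.08 for H2-Oa to 0.39 for Ciita, with a median of 0.24 beside 0.0030 over all genes tested, of which 50.6% were above 0. Without KO1, 8 of the 10 were above 0, with H2-Oa at -0.057 and H2-DMa at -0.0011. The members are co-expressed, so these 10 directions are not independent of each other. The KO and WT libraries overlapped for each of the 10 members, whereas they did not overlap for 11.5% of all genes. The intervals leave room for changes of up to 1.91-fold, in H2-DMb1, so that an equal level in both genotypes was not shown.

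The spread within a genotype was of similar or greater size than these differences. The 10 members together made up 0.830%, 0.541% and 0.618% of all counts in WT1 to WT3 and 0.893%, 0.897% and 0.587% in KO1 to KO3. WT libraries averaged 0.663 ± 0.15% (SD, n = 3) and KO libraries 0.792 ± 0.177% (SD, n = 3), and the KO mean was 1.20 times the WT mean. The highest library held 1.53 times the share of the lowest in WT and likewise in KO. Such a range over 3 libraries is not a like measure to a ratio of means, and the same ranges were not taken over all genes. Without KO3, the KO and WT libraries did not overlap for H2-Ab1, H2-Eb1, H2-Ob, Cd74 and Ciita, or 5 of 10 members, where 31.4% of all genes did not overlap. Without WT1 this held for H2-Aa and H2-DMb1, or 2 of 10, against 27.9% of all genes. In neither setting was a member called, with adjusted p-values of at least 0.207 by the same edgeR test. Over all genes it called 94 of 13302 without KO3 and 2 of 13293 without WT1.

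**Figure D2:**
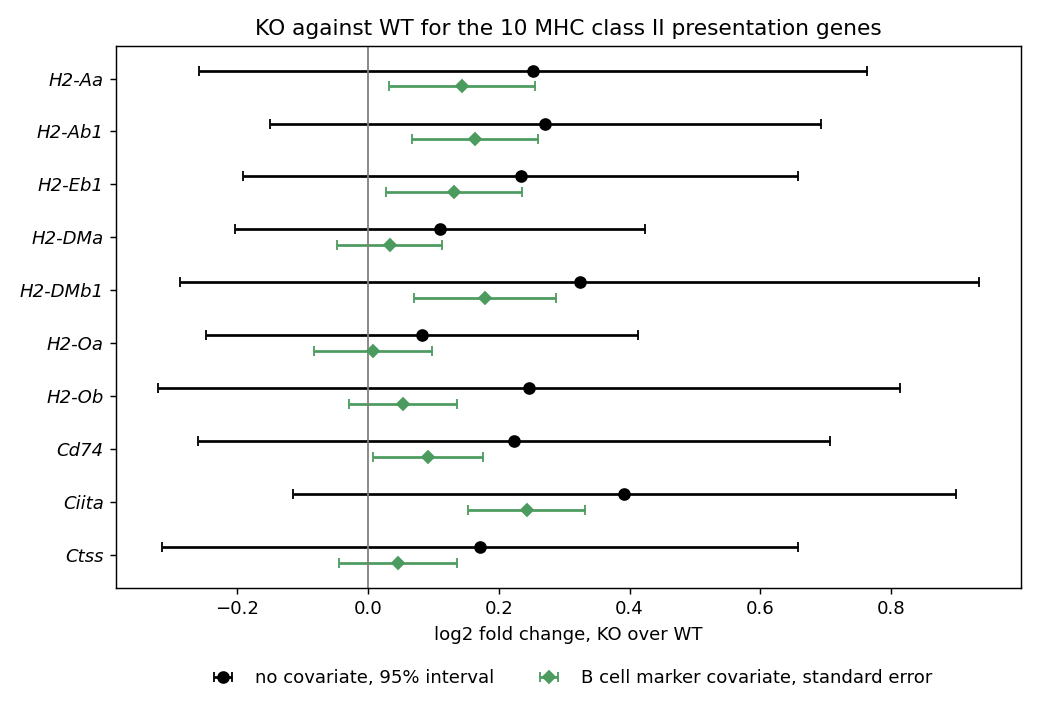
Log2 fold change of KO over WT for the 10 members, without a covariate (black, 95% interval) and with the mean level of 15 B cell markers as a covariate (green, standard error). All black intervals include 0, and the values with the covariate are smaller for each of the 10 members.

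The order of the members' levels was taken per kilobase of exon, over the 6 libraries. Cd74 led with a mean of 1951 ± 428 CPM per kilobase (SD, n = 6), followed by H2-Eb1 with 506 ± 98.3, H2-Ab1 with 403 ± 81.1, H2-Aa with 254 ± 59.8 and Ctss with 222 ± 49.0 CPM per kilobase (SD, n = 6 for each). H2-DMb1 with 50.6 ± 15.3, H2-Ob with 49.7 ± 13.2 and H2-Oa with 48.6 ± 6.71 CPM per kilobase (SD, n = 6 for each) did not differ beyond their spread. H2-DMa followed with 35.4 ± 4.69 and Ciita with 17.1 ± 4.63 CPM per kilobase (SD, n = 6 for each). Neighbours in this order overlapped in range, except Cd74 with H2-Eb1, Ctss with H2-DMb1, H2-Oa with H2-DMa, and H2-DMa with Ciita. Within each library, however, H2-Eb1 exceeded H2-Ab1 and H2-Ab1 exceeded H2-Aa on this scale. Exon lengths were taken over all annotated transcripts, so that genes with long rare transcripts are understated.

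The members shared a profile across libraries that did not follow genotype. Their mean log2 level, centred on the 6 libraries, was 0.22 in WT1, 0.31 in KO1 and 0.31 in KO2, and -0.34 in WT2, -0.23 in WT3 and -0.27 in KO3. How closely a gene kept to this profile was measured as the SD, over the 6 libraries, of its log2 ratio to the mean of the members. This SD was 0.028 for Cd74, 0.062 for H2-Ab1, 0.063 for Ctss and 0.176 for H2-DMb1, the member furthest from the mean, beside a median of 0.356 over 9261 genes with a mean of at least 10 CPM. Of the 9261 genes, 338 lay at or below the SD of H2-DMb1, the 10 members included. The members define the mean, so their own values are low by construction. Outside all lists, the 5 genes closest to it were Tor3a (0.055), Plekhm3 (0.056), Rufy3 (0.059), Syne3 (0.061) and Serp1 (0.063). Among the genes of the pathway and marker lists, the closest were Ifi30 (0.074), which encodes the thiol reductase of the endosome, and Ctsc (0.085), which encodes cathepsin C.

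Markers of other splenic cells moved across the libraries as well, and their part in the levels of the members was not tested. The 15 B cell markers summed to 3696, 2187 and 2148 CPM in WT1 to WT3 and to 3775, 4040 and 1794 CPM in KO1 to KO3. This is the same division into high and low libraries as for the members, except that KO3 was the lowest of all. The 13 monocyte and macrophage markers summed to 1261 to 2010 CPM in WT and 1317 to 2535 CPM in KO libraries, with the same 3 libraries high. The summed level of the 12 T cell markers ran the other way, at 3615, 4752 and 4563 CPM in WT1 to WT3 and 3300, 2640 and 4548 CPM in KO1 to KO3. Not every T cell marker did so, and Cd4, the co-receptor of helper T cells that some DCs also carry, had 67.3, 36.6 and 34.6 CPM in WT1 to WT3 and 75.3, 71.6 and 28.7 CPM in KO1 to KO3, divided as the members were.

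The 12 conventional DC markers were the only one of these 4 lists whose summed level separated the genotypes, at 715 to 762 CPM in WT and 891 to 970 CPM in KO libraries. Their median log2 fold change was 0.48, and 5 of 12 had an unadjusted p-value under 0.05 by the edgeR test, all higher in KO, beside 814 of all 13024 genes tested (6.25%), of which 539 were higher in KO, while none of the 12 passed the adjusted threshold. In CPM, without scaling to length, Wdfy4, Dpp4 and Itgax, which lymphocytes also express, carried the most weight in that sum. Within the KO libraries the list did not move as 1 block. KO3 was the highest of the 6 libraries for 5 of the 12 markers (Flt3, Zbtb46, Xcr1, Clec9a and Dpp4) and the lowest for Cd209a, at 2.29 CPM, while the summed level of the list was lower in KO3 (891 CPM) than in KO1 (952 CPM) or KO2 (970 CPM).

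**Figure D3:**
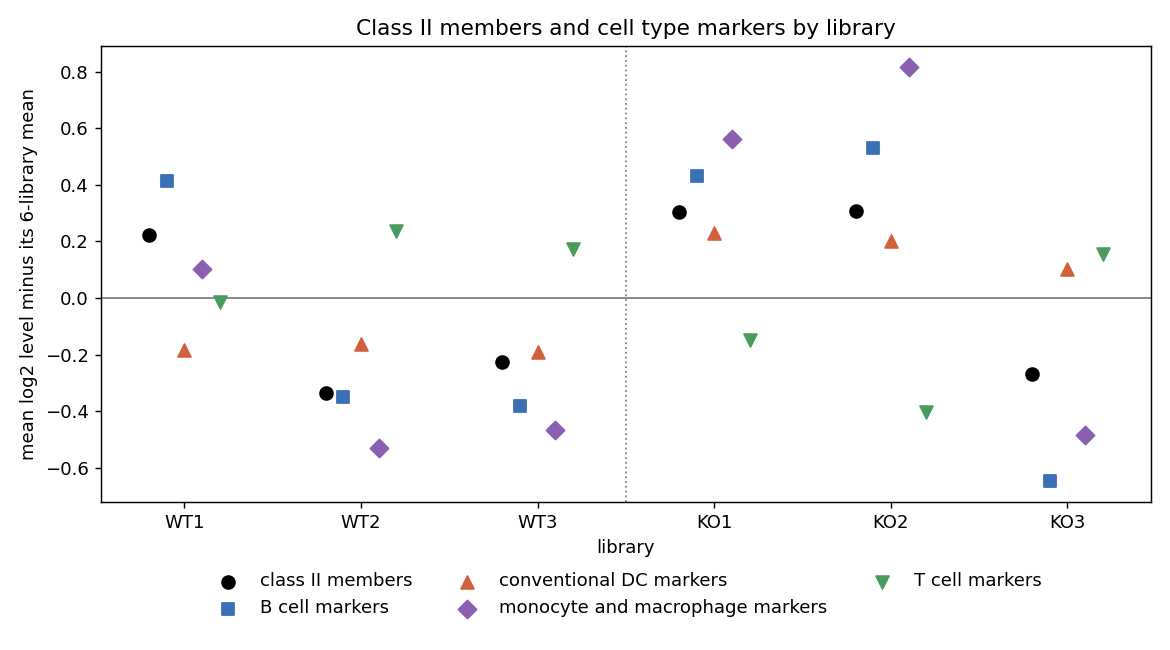
Mean log2 level of the 10 class II members and of the markers of 4 cell types in each library, each minus its own mean over the 6 libraries, in log2 units. Members (black) and B cell markers (blue) are high in WT1, KO1 and KO2 and low in WT2, WT3 and KO3, whereas conventional DC markers (orange) are below 0 in all 3 WT and above 0 in all 3 KO libraries.

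The neutrophil markers summed to 895, 271 and 220 CPM in WT1 to WT3 and to 923, 1084 and 352 CPM in KO1 to KO3, divided as the members were. The NK cell, plasmacytoid DC and erythroid sums were not divided in this way. The lists are otherwise given by their medians. The median log2 fold change was 0.27 over the B cell list, 0.83 over the monocyte and macrophage list, -0.30 over the T cell list and 0.10 over the 7 NK cell markers. It was -0.12 over the 6 plasmacytoid DC markers tested, 0.70 over the 7 neutrophil markers and 1.11 over the 8 erythroid markers. At an unadjusted p-value under 0.05 by the edgeR test, 6 of 13 monocyte and macrophage markers and 1 of 7 NK cell markers were higher in KO, 1 of 12 T cell markers was lower (6.25% of all genes reached this level), and no B cell, plasmacytoid DC, neutrophil or erythroid marker reached this level. No gene of any marker list passed the adjusted threshold.

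Relative to the B cell markers, all 10 members were highest in KO3, and they differed in how widely the ratio varied, from 1.25 times for H2-Ob to 1.87 times for H2-Oa between the highest and the lowest library. The differences between members were not tested. Among the related genes, the ratio of H2-DMb2 to the summed B cell markers stayed between 0.0598 and 0.0678 in all 6 libraries, the highest being 1.13 times the lowest. For H2-Eb2 the highest ratio was 1.24 times the lowest. H2-Oa, which varied most, is the DO partner of H2-Ob, which varied least. H2-DMa followed H2-Oa with 1.78 times. For the summed classical chains the highest was 1.597 times the lowest, and their ratio was 0.916, 0.992 and 1.22 in WT1 to WT3, 0.963 and 0.882 in KO1 and KO2 and 1.41 in KO3. The sum in the denominator was itself lowest in KO3, at 1794 CPM, and the ratio of H2-DMb2 was lowest there, at 0.0598. Over all 10 members the summed ratio averaged 2.55 ± 0.331 (SD, n = 3) for WT libraries and 2.61 ± 0.597 (SD, n = 3) for KO libraries, a difference smaller than the spread.

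With the mean level of the B cell markers as a covariate, the log2 fold changes became smaller for all 10 members and stayed above 0. Ciita was then 0.24 (standard error 0.090, unadjusted p = 0.0223, edgeR adjusted p = 0.493), and it was the only member with an unadjusted p-value under 0.05 in this setting. Over all genes, 1069 of 13024 reached this level in the same edgeR fit. H2-Ab1 was 0.16 (standard error 0.096), H2-Ob was 0.054 (standard error 0.082) and H2-Oa was 0.0074 (standard error 0.090). The covariate was computed from the same libraries, and it leaves 3 residual degrees of freedom. With the mean level of the conventional DC markers as the covariate instead, all 10 log2 fold changes turned below 0, from -2.19 for H2-Ob to -0.97 for H2-DMa. The edgeR test called none of the 10, and 0 of the 13024 genes in all. At an unadjusted p-value under 0.05 were 2 of 10 members, beside 600 of 13024 genes. That covariate does not overlap between the genotypes, so that it and the genotype cannot be told apart.

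**Figure D4:**
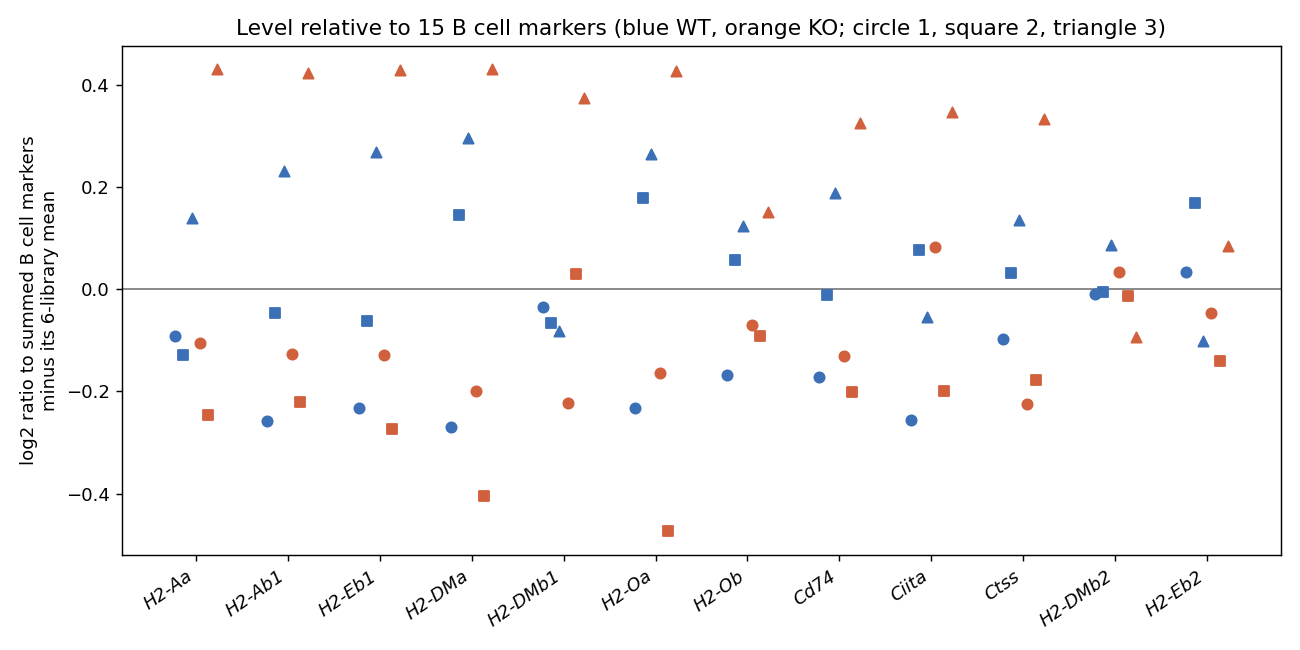
Log2 ratio of each member, and of H2-DMb2 and H2-Eb2, to the summed CPM of 15 B cell markers in each library, minus its mean over the 6 libraries (blue WT, orange KO, with circle, square and triangle for libraries 1, 2 and 3). KO3 (orange triangle) is the highest point for all 10 members, and the points of H2-DMb2, H2-Eb2 and H2-Ob lie closest together.

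Other genes of the pathway were listed by function, and none of the 49 that could be tested was called at an adjusted p-value under 0.05 by the edgeR test. Of the 49, 5 had an unadjusted p-value under 0.05, all higher in KO, where 814 of 13024 genes (6.25%) reached this level. The median log2 fold change of the 49 was 0.095. The WT and KO libraries did not overlap for 4 of the 49 (Cst3 and Rab7 higher, Rfxank and Nfyb lower in KO), against 11.5% of all genes.

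The factors that bind the class II module had smaller estimated changes than Ciita, and the difference was not tested. Rfx5, the DNA-binding subunit of RFX, had 57.2 to 66.0 CPM in WT and 55.7 to 72.9 CPM in KO libraries (log2 fold change 0.09, standard error 0.12). Rfxap and Rfxank, its partners, had log2 fold changes of -0.054 and -0.18 (standard errors 0.13 and 0.095). All 3 KO libraries were below all WT libraries for Rfxank, at 34.2 to 38.1 against 39.4 to 43.3 CPM, without a call (adjusted p = 0.817 by edgeR's quasi-likelihood test). The subunits of NF-Y had log2 fold changes of 0.026 for Nfya, -0.12 for Nfyb and -0.0072 for Nfyc. Nfyb stood at 44.5 to 49.3 CPM in WT and 41.1 to 43.8 CPM in KO libraries.

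Among factors that act on Ciita or on the identity of antigen-presenting cells, Irf8, a factor of DCs, macrophages and B cells, had the smallest p-value. Irf8 stood at 289, 224 and 259 CPM in WT1 to WT3 and at 392, 384 and 286 CPM in KO1 to KO3 (log2 fold change 0.46, standard error 0.15, unadjusted p = 0.0141 and adjusted p = 0.712 by the same edgeR test). KO3 lay just below WT1. Pax5, the B cell identity factor, had an estimated log2 change of 0.48 (standard error 0.31) and followed the B cell markers, at 199 CPM in KO3 and 475 CPM in KO2.

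Interferon-gamma can switch on Ciita in many cells. Of the 9 genes listed for this route, 3 had a log2 fold change above 0 and none an unadjusted p-value under 0.05. Irf1, which acts on the interferon-inducible Ciita promoter, had an estimated log2 change of -0.18 (standard error 0.10). Jak1, a kinase of the receptor, had -0.12 (standard error 0.11), and Irf2 had 0.092 (standard error 0.093). Ifng itself stood at 17.8 to 26.5 CPM in WT and 13.3 to 25.0 CPM in KO libraries.

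Of the 11 endosomal proteases and related genes, 10 had a log2 fold change above 0, with a median of 0.27. Cst3, which encodes the protease inhibitor cystatin C and is high in DCs, had 347, 350 and 373 CPM in WT1 to WT3 and 527, 413 and 660 CPM in KO1 to KO3. All 3 KO libraries lay above all WT libraries, with KO3 the highest, although the change was not called (log2 fold change 0.58, standard error 0.16, adjusted p = 0.624 by the same edgeR test). Ctsb, a cathepsin of macrophages and other cells, had 392 to 554 CPM in WT and 478 to 1026 CPM in KO libraries (log2 fold change 0.73, standard error 0.26, adjusted p = 0.751 by the same edgeR test). Lgmn, the asparaginyl endopeptidase, had an estimated log2 change of 0.69 (standard error 0.34). KO2 and KO1 were the highest libraries for Ctsb and Lgmn, as they were for the macrophage complement genes C1qa, C1qb and C1qc, which summed to 141 to 205 CPM in WT and to 381, 465 and 156 CPM in KO1 to KO3.

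The last list held 14 genes of class II traffic and turnover, of which 10 had a log2 fold change above 0. Rab7, a GTPase of late endosomes, had 178 to 198 CPM in WT and 211 to 220 CPM in KO libraries, which did not overlap (log2 fold change 0.20, standard error 0.079, adjusted p = 0.786 by the same edgeR test). Marchf8, a ubiquitin ligase of surface proteins, was low, at 3.84 to 7.40 CPM in WT and 6.63 to 18.7 CPM in KO libraries (log2 fold change 0.96, standard error 0.41, adjusted p = 0.786 by the same edgeR test). Lamp2, a lysosomal membrane protein, had an estimated log2 change of 0.46 (standard error 0.23). Marchf1, the ligase that removes class II from the surface of resting B cells and DCs, had 44.8 to 84.7 CPM in WT and 52.5 to 99.9 CPM in KO libraries, with the same 3 libraries high as for the class II genes.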

How the data were processed

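Each of the 6 deposited tables lists Ensembl genes with an expected count. This unit was inferred from the values, of which 3527 to 4925 in a library were fractional, while totals differed between libraries. The submitters' processing notes name GRCm38 and mm10; the aligner, the counter and the use of strand are not given in the sources used here. Symbols, positions and exon lengths came from GENCODE M21 (GRCm38), which names 98.75% of the identifiers.

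Counts were rounded and analysed in R 4.3.3 with edgeR 4.0.16 (TMM, factors 0.989 to 1.01; low counts removed with filterByExpr at min.count 10 and min.total.count 15; quasi-likelihood test, p-values adjusted by Benjamini-Hochberg over the 13024 genes kept, threshold 0.05). CPM are TMM-normalized. DESeq2 1.42.0, limma voom 3.58.1, other normalizations and filters, a replicate block, marker covariates, summed counts of related genes and each library left out were alternatives. Same-numbered libraries are not described as paired, and their deviations from the genotype means had correlations of 0.0343, -0.327 and 0.194.

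The members and lists were chosen with earlier results of these data known. Named are all members, the related genes H2-Ea-ps, H2-Eb2 and H2-DMb2, the RFX and NF-Y subunits, the 3 genes of smallest p-value in each pathway list and the 5 genes outside all lists closest to the members' profile. Ifi30 and Ctsc (the listed genes closest to that profile), Cd3e, Cd4, Cd8a, Cd8b1, Cd79a, Ifng, Marchf1, the C1q chains and the conventional DC markers named singly were chosen after their values were seen.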

Additional observations from a re-analysis of the deposited data

How the results depend on the processing

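No member was called under any alternative, by edgeR, DESeq2 or limma voom. Normalization by DESeq2 size factors or upper quartiles, DESeq2's Wald test, limma voom, both other filters on low counts, the replicate block, the summed related genes and the B cell covariate left every member's log2 fold change above 0. The conventional DC covariate reversed all 10, with none called: H2-Aa -1.05, H2-Ab1 -1.05, H2-Eb1 -1.001, H2-DMa -0.97, H2-DMb1 -1.26, H2-Oa -1.04, H2-Ob -2.19, Cd74 -1.42, Ciita -1.77 and Ctss -1.31 (standard errors of 0.53 to 1.19, edgeR adjusted p of 0.976 to 0.992, 2 of 10 with an unadjusted p under 0.05, beside 600 of 13024 genes). This covariate does not overlap between genotypes (4.39 to 4.42 in WT and 4.68 to 4.81 in KO, mean log2 of CPM + 1), so that the covariate and the genotype cannot be told apart.

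With each library left out in turn, H2-DMa ran from -0.0011 to 0.21 and H2-Oa from -0.057 to 0.19, both below 0 only without KO replicate 1. The other 8 stayed above 0 but moved severalfold: H2-Aa 0.09 to 0.51, H2-Ab1 0.15 to 0.42, H2-Eb1 0.10 to 0.39, H2-DMb1 0.11 to 0.64, H2-Ob 0.08 to 0.47, Cd74 0.10 to 0.41, Ciita 0.20 to 0.58 and Ctss 0.03 to 0.39, with WT replicate 1 or KO replicate 3 left out at the high end. Members whose genotypes did not overlap numbered 0 to 5.

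The number of genes called over the whole table, 4, was 56 with DESeq2, 12 without a filter on low counts, 9 with the replicate block, 30 with the B cell covariate and 0 with the conventional DC covariate (600 at an unadjusted p under 0.05, edgeR). It ran from 2 to 94 with 1 library left out, 94 being without KO replicate 3 and 2 without WT replicate 1 or WT replicate 3. The cause was not tested. The replicate block changed no member's call, and the correlations of same-numbered libraries differed in sign.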
